A study of Mus musculus with 23 samples.

Results

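AP-1 is a family of basic leucine zipper transcription factors that bind DNA as dimers, and 9 of its genes were followed here across every group of the series. The genes were taken by name, not by their values: Fos, Fosb, Fosl1 and Fosl2 of the Fos family, Jun, Junb and Jund of the Jun family, and the related factors Atf3 and Batf. All 9 were present among the 21878 genes of the sorted neutrophil tables and among the 55335 genes of the whole-lung table. Fos proteins do not pair with each other and need a Jun partner, whereas Jun proteins can also pair among themselves. Fos, Fosb, Jun, Junb and Atf3 are immediate early genes, which are transcribed within minutes of a stimulus through MAP kinases, calcium, serum response factor and CREB. Fosl1, Fosl2 and Jund are as a rule slower or steadier, and JunB and Batf are known for roles in the differentiation and activation of blood cells.

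The study asked how the lung changes neutrophils and what the mechanosensitive channel PIEZO1 contributes. Its RNA-Seq of bone marrow neutrophils given the PIEZO1 agonist Yoda1 and its single-cell RNA-Seq are not among the libraries used here. The libraries used come from 3 experiments of bulk RNA-Seq. In the first, neutrophils were sorted as CD45+CD11b+Ly6G+ cells from perfused lung, peripheral blood (PB) and bone marrow (BM) of wild-type (WT) mice, with 3 libraries per tissue. In the second, lung and PB neutrophils came from WT mice and from Piezo1-cKO mice, in which Piezo1 fl/fl is deleted by Vav1-iCre, with 2 libraries per group. In the third, RNA was from whole lung of WT mice given anti-Ly6G antibody, which depletes neutrophils, or of controls, labelled WT and given isotype antibody in the study, with 3 libraries per group. Which of the study's dosing schedules these mice had is not in the labels. Vav1-iCre acts in all blood lineages, so the deletion was not limited to neutrophils, and mice were young adult C57BL/6J, the age of the whole-lung animals being not given in the sources used here. Lung neutrophils were released by enzyme digestion, PB and BM neutrophils were not, and PB and lung cells were first enriched by negative selection, so tissue and handling cannot be told apart. Values are FPKM, in which each gene's read pairs are divided by its length and by the size of the library. A gene was called where the adjusted p of limma's test on log2(FPKM + 1) was below 0.05 and the log2 fold change passed 1 in either direction, or 0.5 in whole lung. The study's legends give 3 mice for the tissue experiment. Whether lung, PB and BM came from the same mice is not in the labels, and the fits treated the libraries as independent. The labels do not say for the other experiments that libraries came from separate animals, so p-values there measure the spread between libraries, which may be technical.

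The checks of the samples came out as follows. Recovered reads per sorted library ran from 9621002, in PB Piezo1-cKO library 1, to 19330763. All 9 neutrophil markers were above 1 FPKM in every sorted library, whereas summed NK cell markers were at most 0.182 FPKM and summed B cell markers at most 0.945 FPKM. Macrophage or monocyte markers summed to 63.8 to 174 FPKM, mostly Csf1r and Adgre1, dendritic cell markers to 6.57 to 67.3 FPKM and eosinophil markers to 7.24 to 29.4 FPKM, and their part in the members' values was not tested. Ly6g, whose protein was used for sorting, was at 50.6 to 781 FPKM in the sorted libraries. Immature neutrophil markers summed to 15346 to 15621 FPKM in BM, against 213 to 320.3 FPKM in lung and PB of that experiment. Summed erythroid markers were at 673 to 729 FPKM in PB Piezo1-cKO libraries and at 15.1 to 17.5 FPKM in PB WT. The targeted gene, Piezo1, was at 0.0301 to 0.0758 FPKM in the Piezo1 experiment, too low to check the genotype labels. The median of all genes tested lay at -0.54 on the log2 scale for lung against PB, at -0.70 for lung against BM and at -0.12 for PB against BM. Dividing each library by its median ratio to the others brought these to -0.04, -0.18 and -0.06, and both scales are given where a sign depends on them.

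All 9 genes are protein coding, and their places on GRCm38 in GENCODE vM21 were read to see which share sequence with a neighbour. Fos lies on chromosome 12 from 85473890 to 85477273 on the plus strand and has 4 exons. Batf, with 3 exons, lies 209396 bases further along the same chromosome and strand. Jun (chromosome 4, 95049034 to 95052222, minus strand) and Junb (chromosome 8, 84974484 to 84978718, minus strand) have a single exon, as has Jund on chromosome 8. Fosb is at chromosome 7 from 19302696 to 19310051 on the minus strand, Fosl2 at chromosome 5 from 32135801 to 32157842 on the plus strand, Fosl1 at chromosome 19 from 5447547 to 5455946 on the plus strand and Atf3 at chromosome 1 from 191170296 to 191218039 on the minus strand. Annotated genes on the other strand overlap Jun (Junos), Junb (Prdx2), Fosl1 (Ccdc85b), Jund and Atf3. Whether counting used strand is not given in the sources used here, so reads of such pairs cannot be told apart. Prdx2 was at 1.92 to 6.77 FPKM and Ccdc85b at 0.118 to 1.45 FPKM in the sorted libraries.

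The 250 bases before the RefSeq start site (GRCm38.p6) are shown for Fos, Fosb, Jun and Junb, as the most abundant members (Fos and Junb) and the members called in opposite directions between lung and PB (Fosb and Jun). A RefSeq window was found for 8 of the 9 genes, Fosl1 being the exception. Capitals mark the CRE core TGACG and the TATA box TATAAA, both looked for on both strands, and sequences run 5′ to 3′ along each gene's own strand. The last 6 bases shown for Fosb lie inside its longer GENCODE model. Of the windows not shown, those of Fosl2 and Atf3 lie wholly inside their GENCODE genes, and that of Batf ends inside its gene. The window of Jund ends at 70697738, before the GENCODE start at 70698949.
Fos, chr12:85473640-85473889: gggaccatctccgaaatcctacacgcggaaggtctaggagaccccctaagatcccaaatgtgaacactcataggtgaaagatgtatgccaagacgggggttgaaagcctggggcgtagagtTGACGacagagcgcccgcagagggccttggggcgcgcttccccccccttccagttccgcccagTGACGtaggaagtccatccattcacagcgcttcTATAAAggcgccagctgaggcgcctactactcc
Fosb, chr7:19310046-19310295: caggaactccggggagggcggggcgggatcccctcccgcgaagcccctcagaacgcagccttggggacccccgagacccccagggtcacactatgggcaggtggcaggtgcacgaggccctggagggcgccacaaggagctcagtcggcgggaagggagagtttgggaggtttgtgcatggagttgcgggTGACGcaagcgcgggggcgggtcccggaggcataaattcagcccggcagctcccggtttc
Jun, chr4:95052223-95052472: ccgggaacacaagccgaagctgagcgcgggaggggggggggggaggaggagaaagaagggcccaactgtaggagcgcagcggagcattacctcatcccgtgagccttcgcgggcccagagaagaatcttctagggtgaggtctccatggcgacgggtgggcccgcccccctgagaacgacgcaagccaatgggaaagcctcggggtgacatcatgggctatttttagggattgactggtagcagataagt
Junb, chr8:84978749-84978998: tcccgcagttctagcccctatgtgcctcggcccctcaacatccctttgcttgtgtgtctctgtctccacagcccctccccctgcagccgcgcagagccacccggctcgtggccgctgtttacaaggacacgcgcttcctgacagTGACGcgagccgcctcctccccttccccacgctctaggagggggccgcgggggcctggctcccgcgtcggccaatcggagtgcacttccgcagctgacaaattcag
The core TGACG occurred 2 times before Fos and 1 time each before Fosb, Junb, Atf3 and Batf, and no match stood before Jun, Fosl2 or Jund. It occurred in 17.8% of all 32851 windows of this length, and TATAAA, found before Fos only, in 12.4%. The full TGACGTCA, the CRE, which contains that core, was in none of the 8 windows and in 1.55% of all windows. The AP-1 site TGAGTCA was in none of the 8 and in 4.46% of all windows, and the CArG box, which serum response factor binds, in none of the 8 and in 1.47%. The GC box GGGCGG was in 6 of the 8 windows, all but Junb and Jund, against 32.7% of all windows, and CCAAT was before Jun and Junb and in 33.8% of all. The windows of Batf and Jund held 46.4% and 47.6% G and C and the others 58.4% to 68.8%, against a median of 52.4% over all windows. The part of this content in the matches was not tested. These are matches of letters in a short window and say nothing of binding.

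In WT neutrophils, AP-1 transcripts were abundant in lung and PB and several times lower in BM. The 9 genes summed to 5061 ± 41.3 FPKM in lung (SD, n = 3), 5623 ± 460.1 FPKM in PB and 1291 ± 14.3 FPKM in BM. They took 1.22% of all FPKM in lung, 1.34% in PB and 0.26% in BM. Junb and Fos dominated, with Junb among the 22 most abundant genes of every lung and PB library of this experiment and Fos among the 44 most abundant.

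**Figure D1:**
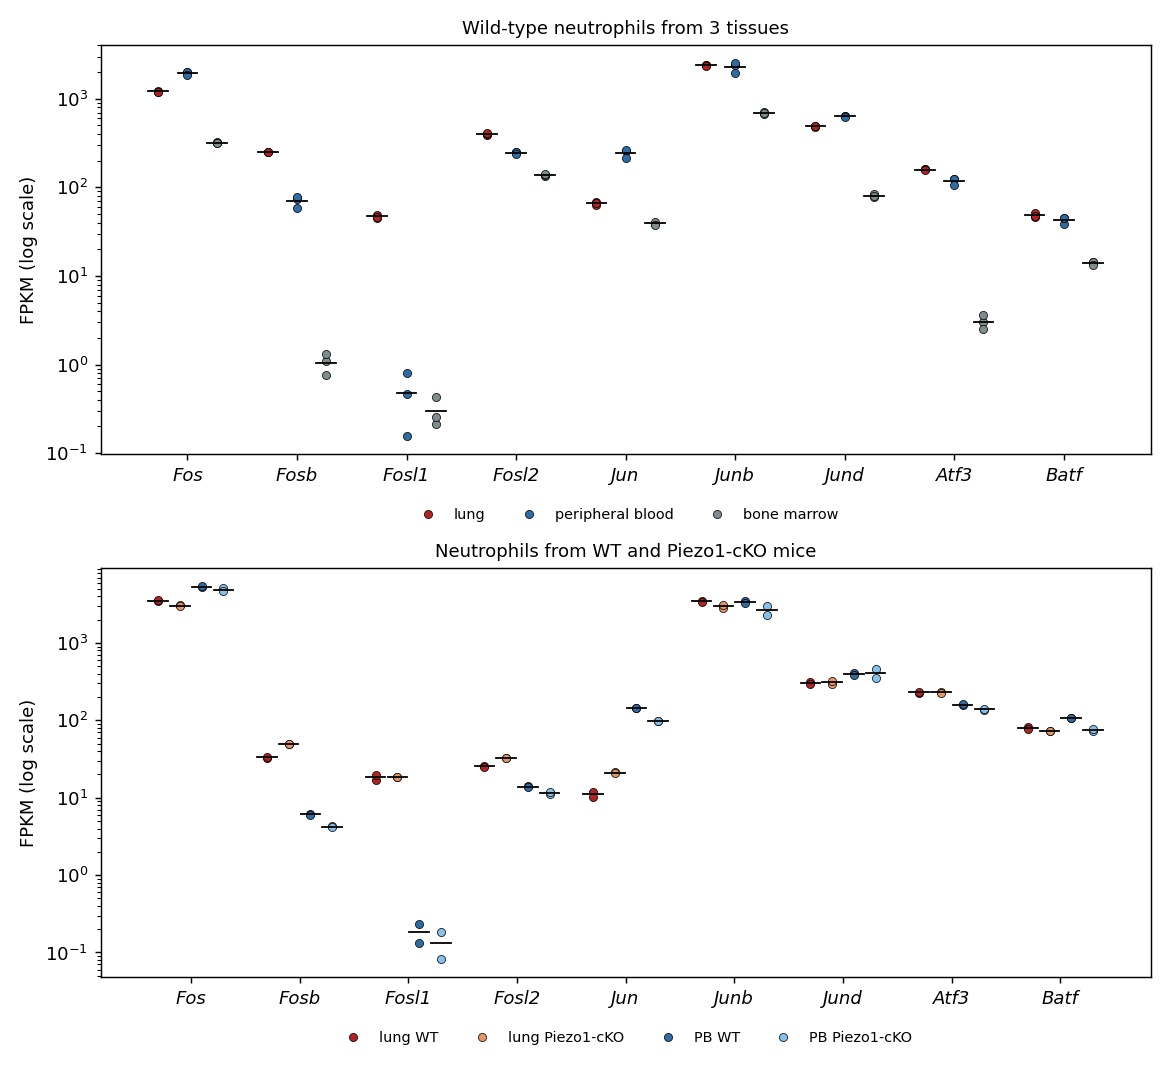
FPKM of each AP-1 gene in every sorted library, on a log axis, with 1 point per library and a bar at the group mean. The upper panel shows lung, PB and BM of the tissue experiment (3 libraries each), the lower panel both tissues and genotypes of the Piezo1 experiment (2 each). Fosl1 is at 16.9 FPKM or more in lung and below 1 FPKM elsewhere, and Jun is higher in PB than in lung in both panels.

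Fosb and Fosl1 of the Fos family were called higher in lung than in PB. Fosb, which encodes an activating FosB and shorter splice forms, was at 248, 251 and 252 FPKM in lung, 74.6, 78.3 and 59.0 FPKM in PB, and 1.09, 0.767 and 1.3 FPKM in BM. The 3 tissues did not overlap, and the gene rose 3.55-fold in lung over PB (log2 fold change 1.82 ± 0.10 SE, adjusted p = 9.34e-07). Fosl1, which encodes FRA-1, was at 45.3, 49.2 and 46.7 FPKM in lung, against 0.464, 0.796 and 0.158 FPKM in PB and 0.428, 0.212 and 0.255 FPKM in BM. The PB and BM libraries were all low, at 5 to 25 reads each, and the mean was 99.6-fold higher in lung than in PB (log2 fold change 5.05 ± 0.15, adjusted p = 3.47e-08), the 14th highest log2 fold change of 7577 genes. Fosl2, which encodes FRA-2, was at 392, 397 and 406 FPKM in lung, 251, 251 and 237 FPKM in PB and 136, 139 and 142 FPKM in BM. Its log2 fold change for lung against PB was 0.69 ± 0.05 (adjusted p = 4.57e-06), below the fold needed for a call, and 1.29 after rescaling.

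Fos and Jun were highest in PB. Fos was at 1224, 1205 and 1199 FPKM in lung, 1999, 2027 and 1843 FPKM in PB and 325, 319 and 316 FPKM in BM. Its mean was 1.62-fold higher in PB than in lung (log2 fold change for lung against PB -0.69 ± 0.06, adjusted p = 9.08e-06). After rescaling the difference was -0.10 and did not pass (adjusted p = 0.165 by limma). Jun, which encodes c-Jun, was at 63.6, 69.1 and 66.6 FPKM in lung, 257, 262 and 212 FPKM in PB and 38.9, 40.7 and 37.8 FPKM in BM. The lung and PB libraries stood well apart, and Jun was 3.66-fold higher in PB (log2 fold change -1.85 ± 0.09, adjusted p = 3.75e-07; -1.26 after rescaling). Jun was thus the only member called lower in lung than in PB.

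The remaining members were not called between lung and PB, and their values depended on the scale. Junb was at 2376, 2432 and 2364 FPKM in lung and 2435, 2519 and 1963 FPKM in PB, and these groups overlapped (log2 fold change 0.06 ± 0.09, adjusted p = 0.564). After rescaling the value for Junb was 0.66 and passed the adjusted p (3.15e-04). Jund had a mean of 491 ± 6.5 FPKM in lung and 638 ± 8.23 FPKM in PB (n = 3 each), a log2 fold change of -0.38 that turned to 0.22 after rescaling. Atf3, a stress-induced factor, was at 160, 161 and 156 FPKM in lung and 125, 124 and 107 FPKM in PB (log2 fold change 0.42 ± 0.07, adjusted p = 5.48e-04; 1.01 after rescaling). Batf, best known in lymphocytes and dendritic cells, was at 51.7, 46.7 and 47.5 FPKM in lung and 39.1, 45.2 and 45 FPKM in PB, and did not pass (log2 fold change 0.17, adjusted p = 0.0562), but after rescaling it was at 0.76 (adjusted p = 3.85e-05). For lung against PB, 2 of 9 members were called higher against 7.75% of all genes tested, and 1 lower against 19.5%. Fosl1 was tested only because its lung libraries reached 1 FPKM, so it could not have been called lower. Adjusted p alone was passed by 7 of 9, against 85.5% of all genes, a share near the background. The median log2 fold change was 0.17 over the members and -0.54 over all genes.

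Against BM, nearly the whole family was higher in both lung and PB. Both comparisons used the same BM libraries. In lung 8 of 9 members were called higher, against 9.86% of all genes tested, and none lower, against 36%. The exception was Jun, whose log2 fold change of 0.75 ± 0.04 (adjusted p = 3.34e-08) missed the fold and was 1.40 after rescaling. In PB 7 of the 8 members tested were called higher, against 7.85%, and none lower, against 14.1%. There Fosl2 missed the fold at 0.82 ± 0.05, and Fosl1 was too low to be tested. Fosb and Fosl1 were below 1 FPKM in some or all BM libraries. They were therefore tested through lung, and Fosb through PB, and could not have been called lower. All members tested passed the adjusted p alone, 9 in lung and 8 in PB, against 92.6% and 73.1% of all genes. The median log2 fold change of the members was 1.92 for lung and 2.60 for PB against BM, with -0.70 and -0.12 over all genes.

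Fosb, Fosl1 and Atf3 had the highest folds over BM by mean FPKM in lung, at 238, 158 and 52.1, Fosl1 being low in BM. The log2 fold change of Fosb for PB against BM, 5.12 ± 0.13 (adjusted p = 2.87e-08), was the highest of 8237 genes tested, and for lung against BM it was 6.95 ± 0.08. Atf3 was at only 3.03, 2.54 and 3.58 FPKM in BM, and its log2 fold change was 4.89 ± 0.10 for PB and 5.31 ± 0.08 for lung. Jund, at 78.3 to 83.6 FPKM in BM, had log2 fold changes of 2.97 ± 0.05 in PB and 2.59 ± 0.03 in lung. Junb and Batf were each between 3.08-fold and 3.47-fold higher in lung or PB than in BM by mean FPKM. Immature neutrophil markers differed between BM and the other tissues as given above, and their part in these differences was not tested.

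In the Piezo1 experiment, the WT libraries gave a second set of lung and PB neutrophils. The same 2 members, Fosb and Fosl1, were called higher in lung, against 7.5% of all genes tested, and Jun alone lower, against 26.5%. In Piezo1-cKO mice Fosl2 joined them, so that 3 members were called higher, against 7.93%, and Jun again lower, against 23%. In both genotypes Fosl1 was again tested through its lung libraries only. Adjusted p alone was passed by 8 of 9 members in WT, against 89% of all genes, and by 7 of 9 in Piezo1-cKO, against 84.5%.

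Jun was the member that separated lung from PB most strongly downwards. It was at 12 and 10.1 FPKM in WT lung and 146 and 144 FPKM in WT PB, a 13.1-fold higher mean in PB. The log2 fold change of -3.60 ± 0.07 (adjusted p = 1.55e-08) was the 5th lowest of 7143 genes. In Piezo1-cKO mice it was at 21.2 and 20.8 FPKM in lung and 98.7 and 99.5 FPKM in PB, and the log2 fold change was -2.19 ± 0.05 (adjusted p = 2.04e-07). In lung the libraries of the 2 genotypes were therefore both far below every PB library.

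Fosb was at 32.9 and 33.6 FPKM in WT lung and 6.22 and 6.04 FPKM in WT PB (log2 fold change 2.27 ± 0.06, adjusted p = 4.39e-08). In Piezo1-cKO mice it was at 49.1 and 49.3 FPKM in lung and 4.3 and 4.19 FPKM in PB (log2 fold change 3.26 ± 0.06, adjusted p = 9.45e-08). Fosl1 was at 16.9 and 19.9 FPKM in WT lung and 18.5 and 18.6 FPKM in Piezo1-cKO lung, but at 0.0828 to 0.234 FPKM in the 4 PB libraries, where 2 to 6 reads were recovered from each. Among sorted neutrophils, Fosl1 was thus above 1 FPKM only in those from lung, in both genotypes and both experiments.

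Fos was higher in PB than in lung in both genotypes, with log2 fold changes of -0.60 ± 0.01 in WT and -0.67 ± 0.05 in Piezo1-cKO. Rescaling turned the WT value to 0.05 and left -0.09 in Piezo1-cKO, which did not pass (adjusted p = 0.0995 by limma). Jund had -0.39 in WT and -0.38 in Piezo1-cKO, which rescaling turned to 0.25 and 0.20, and Batf had -0.42 and -0.04, which it turned to 0.22 and 0.54. Atf3 was higher in lung, at 0.53 ± 0.03 in WT and 0.72 ± 0.04 in Piezo1-cKO. Junb again did not pass, with adjusted p of 0.353 in WT and 0.176 in Piezo1-cKO, but after rescaling it did, at 0.68 (1.16e-06) and 0.77 (1.37e-03). The directions given for Fosb, Fosl1, Fosl2, Jun and Atf3 held on both scales in both experiments.

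**Figure D2:**
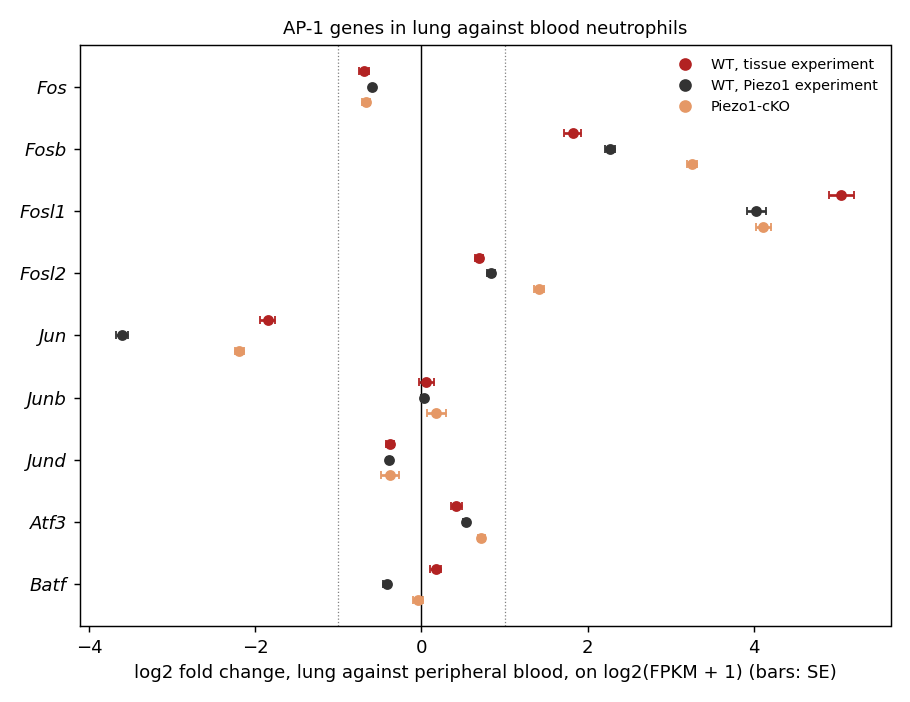
Log2 fold change of each AP-1 gene for lung against PB neutrophils, on log2(FPKM + 1), with bars of 1 SE, in the WT mice of each experiment and in Piezo1-cKO mice. Dotted lines mark the fold needed for a call. Fosl1 and Fosb lie to the right and Jun to the left in all 3 comparisons, and Fos, Junb, Jund, Atf3 and Batf stay between the dotted lines.

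The levels of several members differed widely between the 2 experiments, although the same gene lengths had been used. The tables were normalized separately, so the values are set side by side without a test. Fosl2 had a mean of 398 FPKM in lung of the tissue experiment and 25.5 FPKM in WT lung of the Piezo1 experiment, 15.6-fold apart. Fosb was 7.53-fold and Jun 6-fold lower in the latter, whereas Fos was 2.92-fold and Batf 1.64-fold higher. The members lower there are among the longer transcripts, Fosl2 having 5864 bases, Fosb 4113, Jun 3187 and Jund 2878, but Fosl1, with 1705 bases, was also 2.55-fold lower. The members higher there have 2093 bases (Fos) or fewer. Over all genes of at least 4000 bases, the median log2 difference between the experiments in WT lung was -0.88, and over genes under 1500 bases it was 0.40. The labels name a SMARTER kit for library preparation and the study's methods a VAHTS kit, without saying which was used in which experiment. The part of gene length and of the kit in the members' values was not tested, and the order of members within a library depends on the experiment.

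The make-up of the family shifted accordingly. In the tissue experiment Junb took 47.2% of the summed FPKM of the 9 genes in lung, 40.9% in PB and 53.7% in BM. Fos took 23.9% in lung, 34.9% in PB and 24.8% in BM. Fosl2 took 7.87% in lung, 4.39% in PB and 10.8% in BM. In the Piezo1 experiment Fos and Junb together left little to the others, Fos taking 46.0% in WT lung and 56.0% in WT PB and Junb 44.9% and 35.4%.

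**Figure D3:**
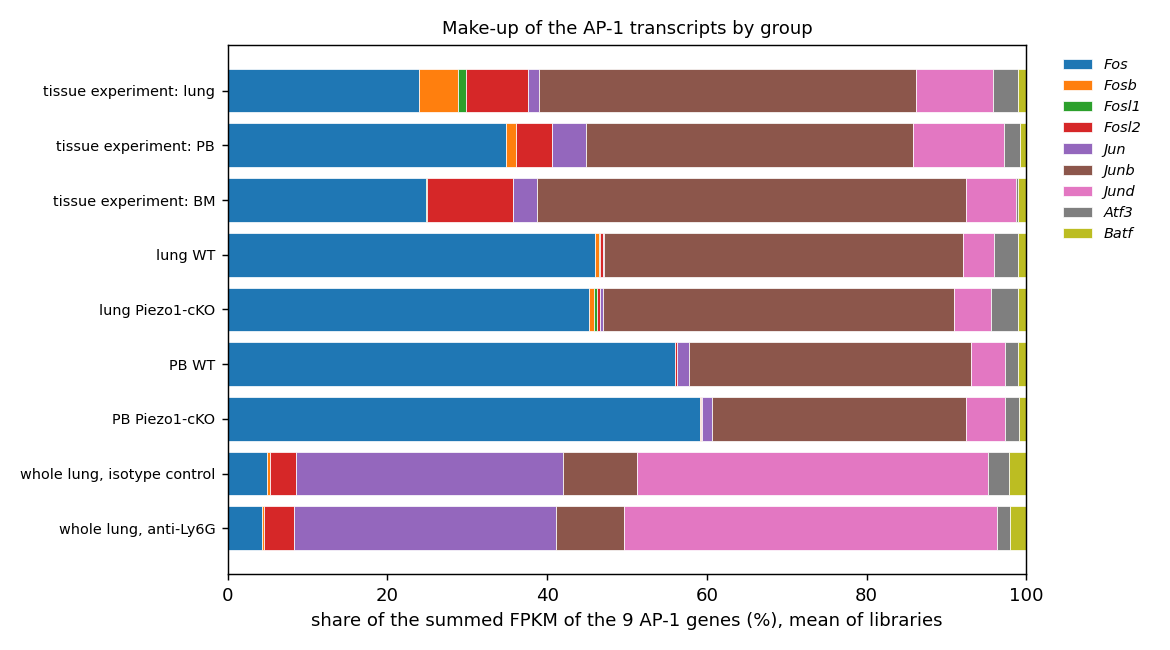
Share of each AP-1 gene in the summed FPKM of the 9 genes, in percent, as the mean over the 2 or 3 libraries of each group. Junb and Fos fill most of every bar for sorted neutrophils, and Jund and Jun most of both bars for whole lung.

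The comparison of Piezo1-cKO with WT asks what loss of PIEZO1 does to neutrophils of each tissue. No member passed the fold of 2 in either direction. In lung 0 of 9 were called, against 0.995% of all genes tested, and in PB 0 of 8, against 3.65%. At an unadjusted p under 0.05 there were 6 of 9 members in lung, against 57.4% of all genes, and 7 of 8 in PB, against 56.9%, and limma-voom on recovered reads also called 0 in each. Smaller differences passed the adjusted p alone. In lung 3 members were higher in Piezo1-cKO (Jun, Fosb and Fosl2), against 35% of all genes, and 3 were lower (Fos, Junb and Batf), against 15.8%. In PB none was higher, against 26.5%, and 7 of 8 were lower, against 23.2%.

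In lung, Jun had the largest difference. Its 2 Piezo1-cKO libraries, at 21.2 and 20.8 FPKM, lay above the WT libraries at 12 and 10.1 FPKM, a 1.89-fold higher mean (log2 fold change 0.87 ± 0.08, adjusted p = 2.97e-04). Fosb was 1.48-fold higher in Piezo1-cKO lung (0.55 ± 0.04, adjusted p = 1.25e-04) and Fosl2, at 32.3 and 32.2 FPKM against 26 and 25 FPKM, was 1.26-fold higher (0.33 ± 0.05, adjusted p = 1.48e-03). Fos fell from 3521 and 3542 FPKM to 3099 and 3002 FPKM (-0.21 ± 0.02, adjusted p = 2.45e-04), and Junb had a log2 fold change of -0.22 ± 0.04 (adjusted p = 9.15e-03). Fosl1, Jund and Atf3 overlapped between the genotypes, with adjusted p of 0.897, 0.634 and 0.970. Immature neutrophil markers summed to 300.5 to 311 FPKM in Piezo1-cKO lung against 221 to 224 FPKM in WT lung. Neutrophil markers summed to 69206 to 73572 FPKM against 90602 to 94017 FPKM. The part of these markers in the lung values was not tested.

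In PB, the same 3 genes were lower in Piezo1-cKO. Jun was at 98.7 and 99.5 FPKM against 146 and 144 FPKM in WT, 1.46-fold lower by the means (log2 fold change -0.54 ± 0.04, adjusted p = 3.17e-04). Fosb was 1.44-fold lower (-0.44 ± 0.08, adjusted p = 4.71e-03) and Fosl2 1.2-fold lower (-0.25 ± 0.07, adjusted p = 0.0217). Batf was at 72.2 and 78.2 FPKM against 106 and 108 FPKM (-0.51 ± 0.05, adjusted p = 6.78e-04). Junb, at 2301 and 2973 FPKM against 3465 and 3293 FPKM, just passed (adjusted p = 0.0458), and its Piezo1-cKO libraries were far apart. Atf3 (-0.19) and Fos (-0.14) also passed, and Jund did not (adjusted p = 0.892). Erythroid markers were higher in the PB Piezo1-cKO libraries as given above, and immature neutrophil markers summed to 826 to 877 FPKM there against 527 to 548 FPKM in PB WT. Their part in these values was not tested.

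The effect of genotype was then compared between the tissues by the interaction term, the log2 fold change in lung minus that in PB. It uses the same libraries as the genotype comparisons above and was called by adjusted p alone. Of the 9 members 5 were higher in this sense, against 29.7% of all genes, and none lower, against 18.5%. For Jun the difference was 1.41 ± 0.10 (adjusted p = 3.55e-05), for Fosb 0.99 ± 0.07 (adjusted p = 5.76e-05) and for Fosl2 0.57 ± 0.07 (adjusted p = 4.62e-04). In these 3 genes the genotype effect had opposite signs in lung and PB. Batf differed by 0.38 ± 0.07 (adjusted p = 2.18e-03) and Atf3 by 0.19 ± 0.05 (adjusted p = 0.0187). The call of Atf3 was lost on rescaling (0.12, adjusted p = 0.11) and without lung WT library 1, lung Piezo1-cKO library 1 or PB WT library 2 (0.16 to 0.17), while rescaling added Fos as lower (-0.15, adjusted p = 0.025). On the scale of the deposited values Fos, Fosl1, Junb and Jund did not pass, with adjusted p of 0.242, 0.673, 0.395 and 0.951. Fosl1 had 2 to 6 reads in each PB library and was tested through its lung libraries only. Its term therefore cannot tell whether the genotype effect differed between the tissues. With a difference above 1 also required, Jun alone remained, and 4.29% of all genes were called higher and 2.57% lower.

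**Figure D4:**
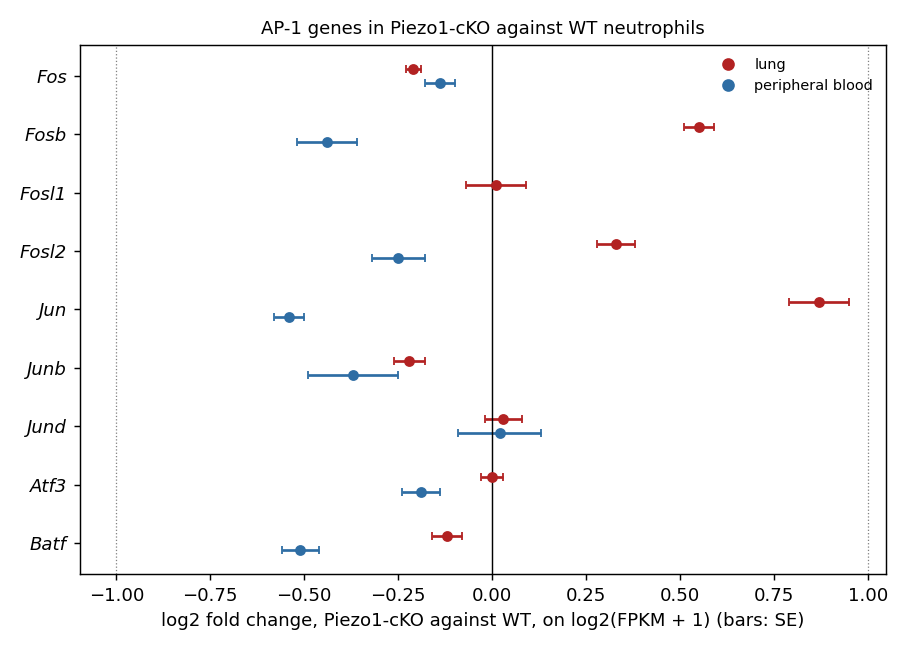
Log2 fold change of each AP-1 gene for Piezo1-cKO against WT neutrophils in lung and in PB, on log2(FPKM + 1), with bars of 1 SE (2 libraries per group). Jun, Fosb and Fosl2 lie right of 0 in lung and left of 0 in PB, and no gene reaches the dotted lines at a fold of 2. Fosl1 was too low in PB to be tested.

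Gene length moved with this interaction as well. Its median over genes under 1500 bases was -0.03, over those from 2500 to below 4000 bases, the class of Jun, 0.06, and over those of at least 4000 bases, the class of Fosb and Fosl2, 0.19. Centring the libraries within 4 classes of length, a setting chosen after seeing the data, left 1.34 for Jun, 0.81 for Fosb and 0.39 for Fosl2, all past the adjusted p (7.05e-05, 1.46e-04 and 3.26e-03). In lung the same centring left Jun at 0.77, Fosb at 0.37 and Fosl2 at 0.15 (adjusted p = 0.0313), while Batf no longer passed (adjusted p = 0.0927).

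Whole lung is a mixture in which neutrophils are only one of many cell types, and Jund and Jun led its AP-1 transcripts. Jund took 44.0% and Jun 33.5% of the summed FPKM of the family in control lung, Junb 9.21% and Fos 4.92%. In such a sample, fewer cells of a type and less RNA per cell cannot be told apart. Summed neutrophil markers were at 215 to 272 FPKM in control lung and 48.9 to 133 FPKM after anti-Ly6G. Other sums were lower after anti-Ly6G without overlap too: B cell (80.4 to 85.6 against 31.4 to 67.4 FPKM), T cell (18.2 to 21.2 against 12.5 to 18 FPKM), fibroblast (219 to 266 against 159 to 214 FPKM) and eosinophil markers (12.8 to 14.1 against 8.68 to 11.7 FPKM). Those of the remaining cell types overlapped. The part of cell make-up in the members' values was not tested. Ly6g itself was at most 0.577 FPKM in any of these libraries.

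No member was called after neutrophil depletion, 0 of 8 tested against 0.00715% of all genes, which is 1 gene of 13990, and 3 of 8 members had an unadjusted p under 0.05, against 11.2% of all genes. Atf3 had the largest difference, from 4.5, 8.27 and 10.2 FPKM in control lung to 3.98, 4.21 and 3.88 FPKM after depletion, a log2 fold change of -0.72 ± 0.24 that missed the adjusted p (0.341). Its control libraries were more spread than the depleted ones, and the groups did not overlap. Junb was at 28.4, 26.1 and 23.8 FPKM against 20.8, 21 and 21.7 FPKM (-0.29 ± 0.08, adjusted p = 0.275), and Fosb at 1.02, 1.01 and 1.07 FPKM against 0.72, 0.633 and 0.758 FPKM (-0.26 ± 0.11, adjusted p = 0.426). These groups did not overlap either, with all depleted libraries below all controls. How many of all genes were separated in this way was not counted, so no conclusion is drawn from the separation. Fos was at 21.3 FPKM in control library 1 and at 8.28 to 12.2 FPKM in the other 5 libraries, so its log2 fold change of -0.20 ± 0.30 rested on that library and was 0.16 without it. Jun, at 74.8 to 105 FPKM, and Fosl2, Jund and Batf overlapped between the groups, and Fosl1 was at most 0.119 FPKM in any library.

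**Figure D5:**
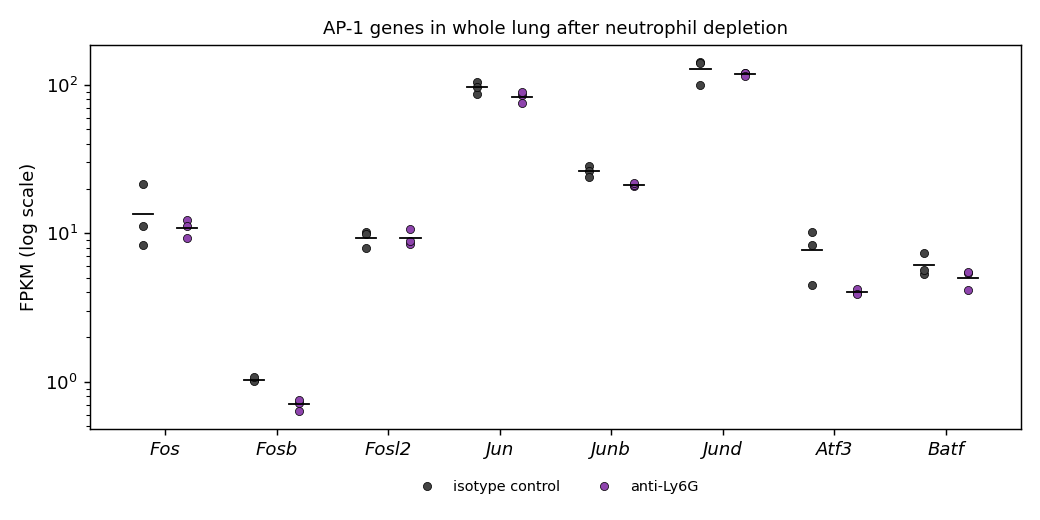
FPKM of the AP-1 genes other than Fosl1 in whole lung after isotype control or anti-Ly6G antibody, on a log axis, with 1 point per library (3 per group) and a bar at the mean. Atf3, Junb and Fosb, of which none was called, are lower in all 3 anti-Ly6G libraries than in any control, and Fos is highest in a single control library.

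Genes that act with AP-1 were followed as lists, which were drawn up with earlier results of these data known. Among other basic leucine zipper factors, 4 of 11 tested were higher in WT lung than PB and none lower, against 7.75% and 19.5% of all genes, with a median log2 fold change of 0.02 against -0.54. By adjusted p alone 4 were higher and 5 lower, against 16% and 69.6% of all genes. Maff, a small MAF protein, rose from 4.11 to 123 FPKM (log2 fold change 4.60), Jdp2, which pairs with Jun, from 56.5 to 395 FPKM (2.79), and Cebpb from 918 to 2968 FPKM (1.70). In WT of the Piezo1 experiment 4 of 10 were higher and none lower, against 7.5% and 26.5% of all genes. Maff, at 0.341 FPKM in PB there, was tested through its lung libraries only. Jdp2 differed in genotype effect opposite to Jun, with an interaction of -0.76 (adjusted p = 1.28e-03).

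The lists above AP-1 had shares near those of all genes, 7.75% higher and 19.5% lower. In the list of MAP kinases, none of 19 tested was called higher in WT lung than PB and 3 were lower: Map3k1 (-1.77), Mapk14 (-1.17), which encodes p38α, and Mapk3 (-1.02), which encodes ERK1. By adjusted p alone 4 were higher and 13 lower, and Map2k3, a kinase above p38, was at 224 FPKM in lung against 119 FPKM in PB (0.92). The median of the list, -0.57, lay near that of all genes. Among SRF, TCF and CREB regulators, 1 of 18 was higher and 3 lower. The one that rose was Crem, a cAMP-responsive modulator, from 1.14 to 16.6 FPKM (3.05), and Mkl1, a coactivator of SRF, had -2.67. For calcineurin, calcium entry and NFAT, partners of AP-1 at many composite sites, 0 of 12 were higher and 3 lower, namely Orai3 (-1.80), Orai1 (-1.71) and Nfatc1 (-1.35).

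In the genotype by tissue term, the calcineurin and NFAT list had 6 of 11 genes higher and 1 lower by adjusted p alone. Over all genes the shares were 29.7% higher and 18.5% lower. The median of the list was 0.38, against 0.08 over all genes. Stim2 (1.07), Stim1 (0.71) and Ppp3r1 (0.58), which sense or relay calcium, were among the higher genes, and Nfatc3 (-0.45) was the lower one. For the MAP kinases 4 of 17 were higher and none lower, and for the SRF, TCF and CREB list 5 of 17 were higher and none lower, shares near or below that of all genes. Elk1 (0.87), Atf1 (0.85) and Mkl1 (0.77) had the largest values of the latter list.

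Textbook AP-1 target genes were mostly higher in lung. Of 20 listed, 12 could be tested. Of these, 8 were higher in WT lung than PB and 2 lower, against 7.75% and 19.5% of all genes, with a median of 1.56 against -0.54 over all genes. Mt2 (2.7 against 0.0325 FPKM) and Hbegf (1.65 against 0.203 FPKM), both among those higher, were tested through their lung libraries only. Vegfa and Il1b had already been named by the study as lung-associated. Vegfa rose from 11.9 to 151 FPKM (3.58), Mt1 from 1.72 to 27.1 FPKM (3.38), Spp1 from 2.95 to 38.5 FPKM (3.32) and Plaur, the urokinase receptor, from 193 to 1276 FPKM (2.72). The 2 lower were Vim, which fell from 852 to 245 FPKM (-1.79), and Mmp9, from 1609 to 778 FPKM (-1.04). In Piezo1-cKO against WT lung none of the 10 targets tested was called, and by adjusted p alone 3 were higher and 5 lower, against 35% and 15.8% of all genes. Cd44 (log2 fold change 0.48), Vim (0.54) and Ets2 (0.32) were higher, and Vegfa (-0.93), Mt1 (-0.65), Spp1 (-0.25), Il1b (-0.17) and Plaur (-0.12) were lower. In PB 2 of 9 were higher and 4 lower by adjusted p alone, against 26.5% and 23.2% of all genes. Vegfa (-0.72), Mt1 (-0.69), Il1b (-0.39) and Ets2 (-0.19) were lower there, and Vim (0.46) and Spp1 (0.43) higher. The interaction did not pass for Vegfa (-0.21, adjusted p = 0.151 by limma) or Mt1 (0.04, adjusted p = 0.869), and for Il1b it was 0.22 (3.76e-04).

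Genes known to respond to tissue dissociation were counted because several AP-1 members are among them. Without the members, 2 of 22 tested were higher in WT lung than PB and 5 were lower, shares near the 7.75% and 19.5% of all genes, with a median of -0.48 against -0.54. Nr4a1 (2.63) and Ier3 (2.02) rose, and Rhob (-3.01), Klf2 (-2.47) and Klf6 (-1.66) fell. Against BM, 12 of 22 were higher in lung, against 9.86% of all genes, and 17 of 22 in PB, against 7.85%. The part of handling in the members' values was not tested.

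Over the 17 sorted libraries, with each experiment centred on its own mean, the genes whose log2 levels followed a member most closely were named among 6202 candidates. These Pearson correlations describe libraries that share tissue, genotype and depth and carry no test. For Fos they were Ctsa (0.993), Vnn3 (0.991) and Socs3 (0.990), and for Jun Sorl1 (0.995), Sat1 (0.987) and Myd88 (0.985). For Fosb they were Pnrc1 (0.996), Plk2 (0.995) and Rab11fip1 (0.994), and for Fosl2 Syk (0.996), Tnfaip3 (0.992) and Isg15 (0.992). Among the members, Junb and Atf3 were closest, at 0.98, and Fosl1 and Jun most opposed, at -0.57.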

How the data were processed

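Bulk RNA-Seq of sorted mouse neutrophils (17 libraries) and whole lung (6 libraries) was read from the deposited tables. The authors enriched poly(A) RNA, trimmed reads with fastp, aligned them to mm10 with HISAT2, counted genes with HTSeq and deposited FPKM values, tool versions being not given in the sources used here. The unit of the Piezo1 tables' expression columns is not stated there either and was read as FPKM from its steps. Columns of fold changes and p-values in those tables hold the authors' own comparisons and were not used. Groups came from the sample labels. Genes at 1 FPKM or more in at least 3 libraries (2 in the Piezo1 experiment) of a comparison were tested on log2(FPKM + 1) with limma 3.58.1 (lmFit, eBayes with trend, only the groups compared in each fit, 4 groups for the interaction) in R 4.3.3, with Benjamini-Hochberg adjustment over all genes tested. Whole reads were recovered from the FPKM steps of the sorted libraries (100.0% of values whole within 0.1 read), which gave 9621002 to 19330763 reads per library, and were tested with limma-voom as an alternative. Whole-lung depth was not recovered, so precision there rests on the spread between libraries. Scripts were tested on simulated data. Named genes were the 9 members, the leading genes of each list, and the 3 genes whose profile was most like that of a member. The members, lists and tests were chosen with earlier results of these data known. Replicate numbers were not taken as pairs, since the labels do not say which libraries share a mouse. Alternatives were rescaling by the median ratio, other pseudocounts and filters, a replicate block, leaving out each library and, chosen after seeing the data, centring within classes of gene length.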

Additional observations from a re-analysis of the deposited data

Results flagged for a closer look

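Of the AP-1 genes, 5 differed between lung and PB in the effect of the Piezo1-cKO genotype by the interaction term of limma. The difference of the log2 fold changes was 1.41 for Jun, 0.99 for Fosb, 0.57 for Fosl2, 0.38 for Batf and 0.19 for Atf3, the call of Atf3 being lost on rescaling (0.12, adjusted p = 0.11 by limma). Jun, Fosb and Fosl2 were higher in Piezo1-cKO than in WT lung and lower in Piezo1-cKO than in WT PB, in both libraries of each genotype. Batf was lower in Piezo1-cKO in both tissues, by more in PB, and Atf3 was lower in PB and overlapped between the genotypes in lung. Erythroid marker levels in PB, immature neutrophil marker levels in both tissues and the slope with gene length moved with the same groups, as given beside the results. Their part was not tested.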

How the results depend on the processing

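Replicate block: adding the replicate number as a block left the number of AP-1 genes called as it was in all 9 comparisons (3 for lung against PB in the tissue experiment and in WT mice of the Piezo1 experiment). Same-numbered libraries correlated at -0.10 to 0.11, and the numbers were not taken as pairs. With so few libraries per group, such correlations cannot show that the animals differed. Without the fold requirement, counts of members called went from 3 to 7 for lung against PB, from 0 to 6 for genotype in lung, from 0 to 7 for genotype in PB, from 3 to 8 for WT and from 4 to 7 for Piezo1-cKO lung against PB. With a fold added, the interaction went from 5 to 1. Rescaling, and centring within length classes, each gave 5 in place of 3 for lung against PB in the tissue experiment and in WT of the Piezo1 experiment. Over all genes, limma-voom called 378 in place of 64 for genotype in lung and 735 in place of 265 in PB.

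Signs that turned belonged to differences below 1 on the log2 scale. Some had passed the adjusted p for lung against PB: Fos (-0.60 in WT, -0.67 in Piezo1-cKO), Batf (-0.42 in WT) and Jund (-0.39 to -0.38). For lung against PB, rescaling and length centring gave Jund 0.22 and 0.20 in the tissue experiment, 0.25 and 0.24 in WT and 0.20 and 0.19 in Piezo1-cKO, Batf 0.22 and 0.24 in WT and 0.54 and 0.67 in Piezo1-cKO, and Fos 0.05 and 0.09 in WT, with 0.01 under length centring in Piezo1-cKO. For genotype in lung they gave Fosl1 -0.08 and -0.03, Jund -0.07 and -0.07 and Atf3 -0.09 and -0.04, and in PB Jund -0.01 and -0.01. For the interaction, Jund was at -0.07 and -0.06, and at -0.01 with limma-voom, and Fosl1 at -0.04 on rescaling. Fosl2 in whole lung was at 0.03 on rescaling.

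Leaving out 1 library at a time moved Junb for lung against PB between -0.05 and 0.13 (tissue experiment), -0.01 and 0.07 (WT) and 0.00 and 0.37 (Piezo1-cKO). The genotype ranges in lung were -0.10 to 0.12 for Fosl1, -0.03 to 0.10 for Jund and -0.03 to 0.03 for Atf3, and in PB -0.16 to 0.20 for Jund. Batf for Piezo1-cKO lung against PB ranged from -0.10 to 0.02. Interaction ranges were -0.03 to 0.19 for Fosl1, -0.03 to 0.34 for Junb and -0.16 to 0.19 for Jund, and whole-lung ranges -0.48 to 0.16 for Fos and -0.10 to 0.06 for Fosl2. The Atf3 interaction no longer passed on rescaling (0.12, adjusted p = 0.11 by limma) or without lung WT library 1, lung Piezo1-cKO library 1 or PB WT library 2 (0.16 to 0.17). Without PB Piezo1-cKO library 2, the interaction of Fos (-0.13) and of Junb (0.34) passed. A lone remaining library is assumed to vary like the others. The causes were not tested. With 2 libraries per group in the Piezo1 experiment, and no depth for whole lung, small differences could be missed.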
